A study of Mus musculus with 15 samples.

Results

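The genes of glycolysis and of the hypoxia response were followed in mouse embryonic stem cells depleted of Tet1, an enzyme that converts 5-methylcytosine to 5-hydroxymethylcytosine, or of Sin3a, the scaffold protein around which a histone deacetylase complex assembles. The 39 genes were taken as a list by symbol, 26 for glucose transport and metabolism and 13 that sense oxygen or are targets of the hypoxia-inducible factors (HIF). Of these, 35 were measured by a probe set with the gene's symbol, out of 18784 named genes on the array: 22 of the 26 transport and enzyme genes and 13 of the 13 HIF genes. Gapdh, Pgam1, Gpi1 and Eno1 were matched to no probe set that the annotation names and are not analysed here. A further 2420 of the 21212 probe sets are not listed in that annotation. Among them are probe sets that carry the gene numbers of Eno1 and Gpi1, which were left out. Gapdh and Pgam1 may also have been measured under probe sets without a name.

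Total RNA was hybridised to 15 Affymetrix 1-colour arrays, 1 per sample, in 5 groups of 3. All cells were E14TG2a.4, a feeder-independent line kept in LIF, a cytokine that sustains the stem cell state, and 15% serum, at passage 17 per the labels. Each group received a lentiviral short hairpin RNA (shRNA), controls included, and puromycin at 2 µg/ml, started 36 hours after transduction and kept for 72 hours. Tet1 shRNA 4 and Tet1 shRNA 5 shared a scrambled shRNA control (the Tet1 set), whereas Sin3A shRNA had a separate one (the Sin3A set). Sin3a was thus targeted by a single hairpin. Whether a group's 3 arrays stem from separate cultures is not stated, so the p-values reflect array-to-array spread that may be technical, and so few arrays limit the precision.

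Glycolysis splits glucose into pyruvate. Lactate dehydrogenase turns pyruvate into lactate, monocarboxylate transporters move lactate across the membrane, and pyruvate dehydrogenase kinases keep pyruvate out of the mitochondrial oxidation path. Prolyl hydroxylases of the Egln family use oxygen to mark HIF alpha subunits for degradation, and stabilised HIF raises many glycolytic genes together with genes of angiogenesis, mitophagy and collagen hydroxylation. Pluripotent stem cells are known for a high rate of glycolysis even when oxygen is present.

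HIF binds the core ACGTG or GCGTG, so the start regions of the members were searched for these letters on both strands (CACGT and CACGC when read on the opposite strand), which overlap the E-box CACGTG. RefSeq (GRCm38.p6) gave windows of 300 bases, 250 before to 50 after the start, for 33 of the 35 measured members. Ndrg1 and Slc2a3 had none. Of the members' 48 windows, 38 (79.2%) held a match, against 43.8% of all 32851 windows in the table. The share was 86.7% of 15 windows for the HIF genes and 75.8% of 33 for the transport and enzyme genes. Both cores contain a CpG, and the members' windows were richer in CpG, with a median of 20.0 against 7.00 in all windows. The E-box CACGTG was in 14.6% of the members' windows and in 7.15% of all. A match is a run of letters and not a shown binding site. The windows of Hk1, Pdk1 and Egln3 are printed because these genes were higher in each knockdown, and that of Ddit4 because it was lower with both Tet1 hairpins. Capitals mark the matches, the windows run 5′ to 3′ on the gene's strand, and for Hk1 and Pdk1 the window with the most matches is given, the second window of each having none. They lie at chr10:62340372-62340671 (Hk1, minus strand), chr2:71872974-71873273 (Pdk1, plus strand), chr12:54203825-54204124 (Egln3, minus strand) and chr10:59951721-59952020 (Ddit4, minus strand).
Hk1: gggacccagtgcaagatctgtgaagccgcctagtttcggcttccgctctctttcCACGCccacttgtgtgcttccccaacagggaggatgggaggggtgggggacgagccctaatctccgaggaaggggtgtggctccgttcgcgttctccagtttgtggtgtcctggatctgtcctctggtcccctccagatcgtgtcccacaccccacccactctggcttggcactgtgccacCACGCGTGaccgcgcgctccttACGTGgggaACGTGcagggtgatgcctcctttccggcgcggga
Pdk1: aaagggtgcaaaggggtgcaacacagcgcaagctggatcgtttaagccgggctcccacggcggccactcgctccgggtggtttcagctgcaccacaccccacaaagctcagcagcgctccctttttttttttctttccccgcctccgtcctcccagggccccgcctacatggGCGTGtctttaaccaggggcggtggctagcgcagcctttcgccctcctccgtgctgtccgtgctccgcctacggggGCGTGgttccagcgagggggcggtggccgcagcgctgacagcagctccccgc
Egln3: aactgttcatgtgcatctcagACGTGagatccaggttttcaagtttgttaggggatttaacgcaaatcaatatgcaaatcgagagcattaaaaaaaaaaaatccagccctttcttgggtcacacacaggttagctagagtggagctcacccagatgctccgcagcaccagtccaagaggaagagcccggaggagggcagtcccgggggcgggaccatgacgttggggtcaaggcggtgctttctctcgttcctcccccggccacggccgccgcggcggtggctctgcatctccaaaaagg
Ddit4: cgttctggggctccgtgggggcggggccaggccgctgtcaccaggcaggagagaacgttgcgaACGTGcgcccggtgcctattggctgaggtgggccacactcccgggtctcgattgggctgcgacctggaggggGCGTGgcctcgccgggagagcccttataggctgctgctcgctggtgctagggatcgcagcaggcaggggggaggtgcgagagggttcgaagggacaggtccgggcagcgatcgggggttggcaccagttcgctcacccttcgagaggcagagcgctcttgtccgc
Hk1 held 4 separate places with a match, Pdk1 and Ddit4 held 2 each, and Egln3 held 1.

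The knockdowns and the arrays were checked on the targeted genes first. On the log2 scale of the deposited values, Tet1 was 12.17 to 12.21 in the scrambled arrays, 10.39 to 10.44 with shRNA 4 and 9.94 to 10.20 with shRNA 5. Sin3a was 10.87 to 10.99 in its scrambled arrays and 9.35 to 9.43 with Sin3A shRNA. Each knockdown also came with a smaller shift of the other gene, without overlap. In the Tet1 set Sin3a was 10.25 to 10.31 (scrambled), 9.98 to 10.04 (shRNA 4) and 9.96 to 10.10 (shRNA 5). In the Sin3A set Tet1 was 12.41 to 12.49 (scrambled) and 12.68 to 12.83 (Sin3A shRNA). The part of these cross shifts in the results was not tested. Replicate arrays correlated at r = 0.994 to 0.998 over all probe sets. Scrambled replicate 2 of the Tet1 set and Tet1 shRNA 4 replicate 2 stood apart from their groups in a like way (r = 0.517 between their deviations from the group means). All 12 stem cell markers lay above the median probe set in each group. Of 11 fibroblast markers 2 to 5 did, with summed log2 values of 66.6 to 68.3 in the scrambled arrays, 67.3 to 68.6 with shRNA 4 and 67.1 to 68.3 with shRNA 5, and of 79.3 to 80.4 in the Sin3A set's scrambled arrays and 77.6 to 79.2 with Sin3A shRNA. Primitive endoderm markers were mostly low too (2 to 4 of 10 above the median). Trophectoderm markers lay on both sides of the median (4 to 5 of 10 above it). Summed primitive endoderm markers were 62.0 to 64.4 (scrambled), 64.0 to 65.4 (shRNA 4) and 63.9 to 65.3 (shRNA 5), then 74.0 to 74.5 against 73.8 to 74.3 in the Sin3A set. Summed trophectoderm markers were 65.0 to 66.6, 65.5 to 66.8 and 66.3 to 66.8, then 77.3 to 77.8 against 75.9 to 76.2. Single markers moved in opposite directions, which a sum hides. Of the stem cell markers, 2 were higher and 1 lower with each Tet1 hairpin (25.0%), and 1 higher and 1 lower with Sin3A shRNA (16.7%). Over all probe sets 11.6%, 13.8% and 24.8% passed. In the Tet1 set Klf4 was 10.11 ± 0.09 (SD, n = 3), 10.58 ± 0.05 and 10.37 ± 0.00, and Lin28a was 10.53 ± 0.05, 10.11 ± 0.04 and 10.29 ± 0.03. Of the trophectoderm markers, 2 were higher and 3 lower with shRNA 4 (50.0%, beside the 11.6% over the whole array), 2 rose and 2 fell with shRNA 5, and 1 was higher and 3 lower with Sin3A shRNA. Eomes was 6.87 ± 0.06 (SD, n = 3) in the scrambled arrays of the Tet1 set, 8.15 ± 0.15 with shRNA 4 and 8.26 ± 0.09 with shRNA 5, and Tfap2c changed by -0.71 ± 0.09 and -0.63 ± 0.09 (standard error). Of the primitive endoderm markers, 2 were higher with shRNA 4, and 1 was higher and 1 lower with shRNA 5 and with Sin3A shRNA. Sox7 was 7.02 ± 0.27, 7.81 ± 0.12 and 7.84 ± 0.07 in the Tet1 set, and 8.07 ± 0.06 and 8.52 ± 0.01 in the Sin3A set. Dab2 went the other way, at 6.70 ± 0.15, 6.42 ± 0.06 and 6.29 ± 0.04, and at 8.12 ± 0.07 and 7.26 ± 0.27. Of the fibroblast markers, 1 was higher with each Tet1 hairpin (Thy1, 7.68 ± 0.12, 8.50 ± 0.03 and 8.49 ± 0.08) and 2 were lower with Sin3A shRNA. In the order shRNA 4, shRNA 5 and Sin3A shRNA, the shares called were 50.0%, 40.0% and 40.0% for trophectoderm. They were 20.0% in each for primitive endoderm, and 9.09%, 9.09% and 18.2% for fibroblast markers. The part of these marker shifts in the results was not tested.

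Each knockdown moved some members up and others down, and in no knockdown did the pathway move as a block. Against the scrambled arrays, 8 of the 35 members were higher and 1 was lower with Tet1 shRNA 4 (limma, Benjamini-Hochberg adjusted p under 0.05), or 25.7%. Among all 21212 probe sets 11.6% passed, 6.88% higher and 4.71% lower. With Tet1 shRNA 5, 5 members were higher and 5 lower, or 28.6%, where 13.8% of all probe sets passed (8.37% higher and 5.46% lower). With Sin3A shRNA, 5 were higher and 8 lower, or 37.1%, where 24.8% of all probe sets passed (12.2% higher and 12.6% lower). The members are mostly well expressed, 29 of 35 above the median probe set, and among probe sets above the median 18.8%, 23.0% and 37.6% passed in the same order. The members' shares were thus close to that of other well expressed probe sets, and nothing particular to the pathway is read from them. Their median log2 change was 0.04, -0.01 and -0.02, beside 0.00, 0.00 and 0.01 over all probe sets. In a bulk sample fewer cells that express a gene and less RNA per cell cannot be told apart.

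The calls were also counted by arm, and the difference between the arms was not tested. Of the 22 transport and enzyme genes, 3 were higher and 0 lower with shRNA 4, 3 higher and 3 lower with shRNA 5, and 3 higher and 5 lower with Sin3A shRNA, or 13.6%, 27.3% and 36.4% beside the 11.6%, 13.8% and 24.8% of all probe sets. At an unadjusted p under 0.05, 5 were higher and 2 lower with shRNA 4 by the same limma fit. Of the 13 HIF genes, 5 were higher and 1 lower, 2 higher and 2 lower, and 2 higher and 3 lower in the same order, or 46.2%, 30.8% and 38.5%. The arrays of a knockdown and its control did not overlap for 16, 16 and 22 of the 35 members (45.7%, 45.7% and 62.9%), against 25.0%, 28.9% and 40.5% of all probe sets and 37.8%, 44.8% and 57.5% of those above the median. The hairpins against Tet1 have their 3 control arrays in common, so a high or low control array moves both.

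**Figure D1:**
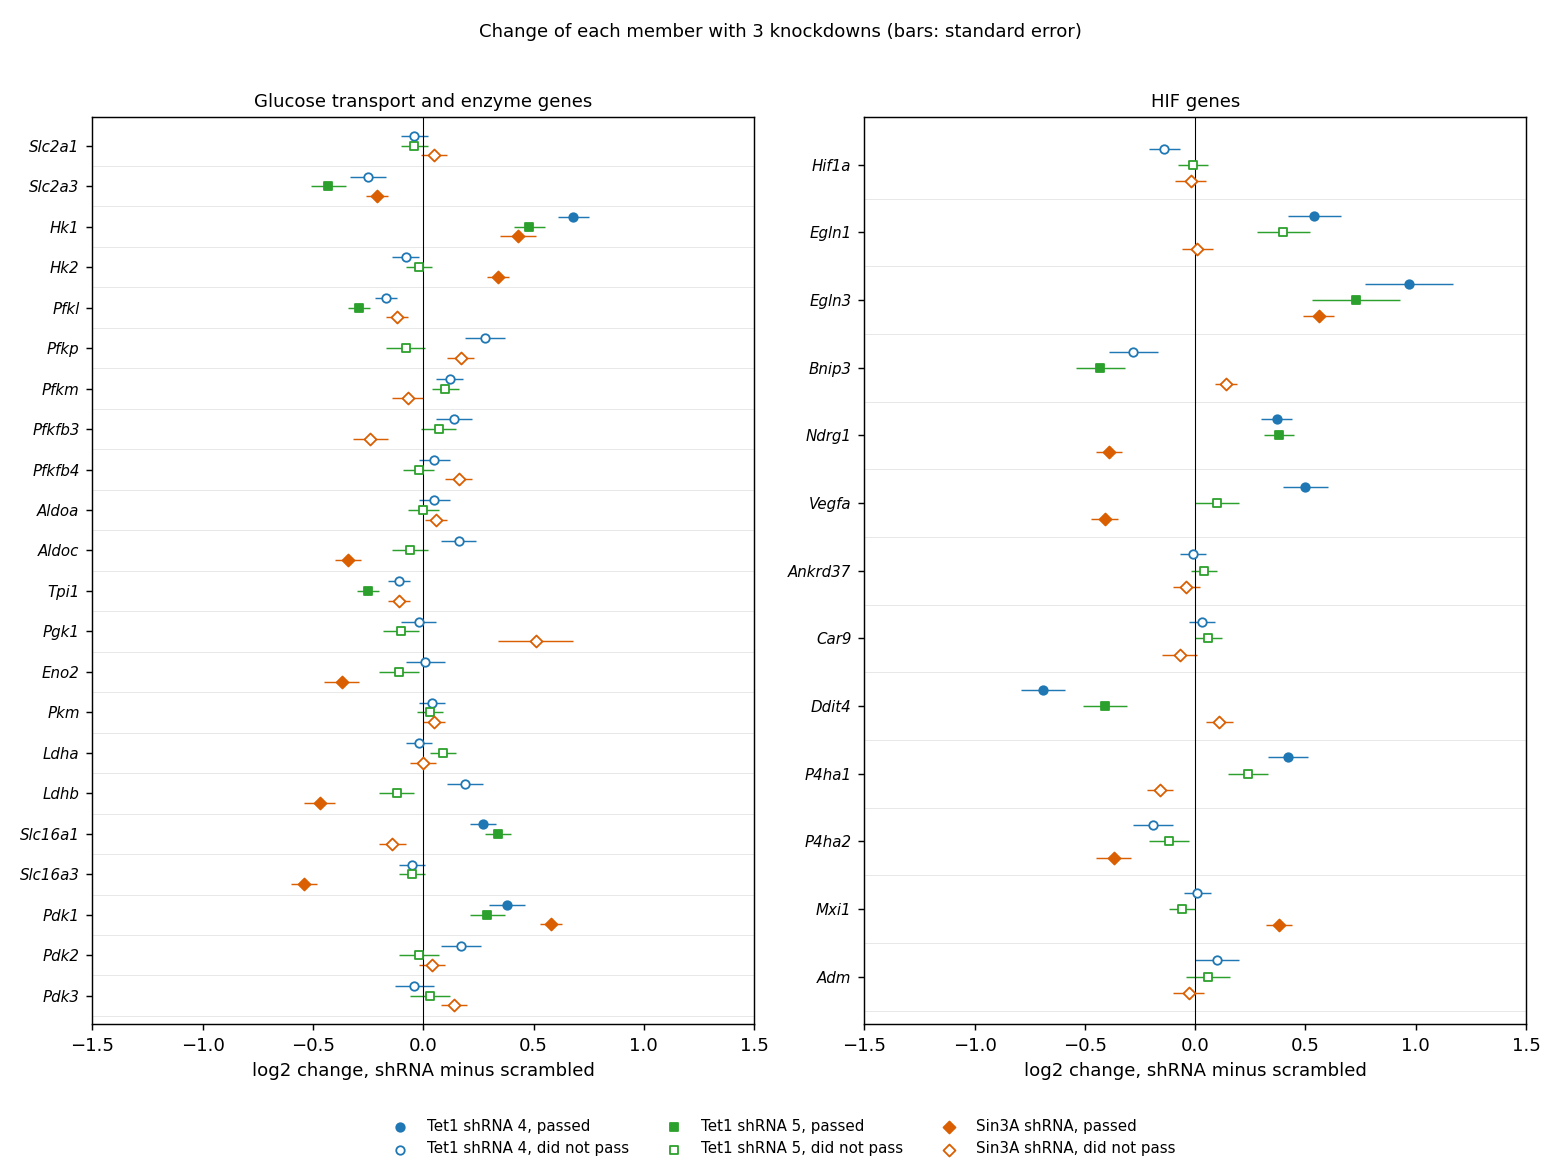
Log2 change of each of the 35 measured members against the scrambled arrays of its set (horizontal axis), with Tet1 shRNA 4 as circles, Tet1 shRNA 5 as squares and Sin3A shRNA as diamonds; bars are standard errors from the limma fits and filled points passed the adjusted threshold. All 3 symbols of Hk1, Pdk1 and Egln3 lie to the right, those of Ddit4 lie to the left with both Tet1 hairpins, and the extremes are 0.97 for Egln3 and -0.69 for Ddit4, both with shRNA 4.

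Glucose entry and phosphorylation gave the clearest enzyme result. Hk1, the hexokinase that traps glucose as glucose 6-phosphate, read 7.91, 8.00 and 8.06 in the scrambled arrays of the Tet1 set, 8.68, 8.63 and 8.68 with shRNA 4, and 8.44, 8.41 and 8.56 with shRNA 5. The Sin3A set gave 9.62, 9.49 and 9.55 in its scrambled arrays and 9.82, 10.11 and 10.00 with Sin3A shRNA. No knockdown array overlapped its controls. The log2 change was 0.68 ± 0.07 (standard error, 1.60-fold, limma adjusted p = 1.68e-04) with shRNA 4, 0.48 ± 0.07 (1.40-fold, 0.00113) with shRNA 5 and 0.43 ± 0.08 (1.34-fold, 0.00652) with Sin3A shRNA. Hk1 passed without each single array in all 3 comparisons.

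Hk2, the second hexokinase, rose only in the Sin3A comparison. Its values were 10.89, 10.91 and 10.89 in the scrambled arrays and 11.16, 11.26 and 11.30 with Sin3A shRNA, with no overlap, a change of 0.34 ± 0.05 (adjusted p = 0.00319). In the Tet1 set it read 10.22, 10.22 and 10.31 in the scrambled arrays, 10.23, 10.13 and 10.16 with shRNA 4 and 10.16, 10.23 and 10.28 with shRNA 5, so the groups overlapped and neither change passed (-0.08 ± 0.06 and -0.02 ± 0.06). The mean Tet1 effect minus the Sin3A effect was -0.39 ± 0.07 (adjusted p = 0.00154).

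The glucose transporter genes differed from each other. Slc2a3, a high-affinity glucose transporter, read 12.82, 12.64 and 12.82 in the scrambled arrays, 12.61, 12.40 and 12.50 with shRNA 4 and 12.31, 12.36 and 12.29 with shRNA 5. In the Sin3A set it read 13.21, 13.23 and 13.16 in the controls and 12.95, 12.99 and 13.03 with Sin3A shRNA. Every knockdown array was below its controls. The change was -0.43 ± 0.08 with shRNA 5 (adjusted p = 0.00412) and -0.21 ± 0.05 with Sin3A shRNA (adjusted p = 0.0174), and it did not pass with shRNA 4 (-0.25 ± 0.08, adjusted p = 0.0622). Leaving out control replicate 1 (adjusted p = 0.0626) or 2 (0.0528) or Sin3A shRNA replicate 2 (0.0688) ended the Sin3A call, as did the replicate number as a block (0.0583). Slc2a1, the widely expressed basal transporter, did not pass, and the 95% intervals of its log2 change were -0.17 to 0.08, -0.16 to 0.09 and -0.08 to 0.18 with shRNA 4, shRNA 5 and Sin3A shRNA.

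Among the enzymes between hexokinase and the triose phosphates, the calls were small decreases. Pfkl, the liver-type phosphofructokinase that commits sugar to glycolysis, read 11.03, 11.13 and 11.11 in the scrambled arrays, 10.92, 10.92 and 10.91 with shRNA 4 and 10.79, 10.78 and 10.82 with shRNA 5. It fell by 0.29 ± 0.05 with shRNA 5 (adjusted p = 0.00552), and the change with shRNA 4 was -0.17 ± 0.05 (adjusted p = 0.071). Values were 11.50, 11.53 and 11.50 in the Sin3A set's controls and 11.40, 11.39 and 11.37 in the knockdown (-0.12 ± 0.05, adjusted p = 0.0905). The knockdown arrays lay below the controls in each comparison, by an amount that passed for shRNA 5 alone. Pfkp and Pfkm, the platelet- and muscle-type subunits, did not pass anywhere, with changes of 0.28 ± 0.09 and 0.12 ± 0.06 with shRNA 4.

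Tpi1, which interconverts the triose phosphates, read 11.93, 11.95 and 11.98 in the scrambled arrays, 11.87, 11.82 and 11.84 with shRNA 4 and 11.68, 11.74 and 11.68 with shRNA 5. It fell by 0.25 ± 0.05 with shRNA 5 (adjusted p = 0.0107). With shRNA 4 the change was -0.11 ± 0.05, and in the Sin3A set, where the controls read 12.75, 12.64 and 12.76 and the knockdown 12.62, 12.59 and 12.61, it was also -0.11 ± 0.05. Neither of these passed, though the groups did not overlap.

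Aldoc, the brain-type aldolase, moved with Sin3A shRNA. It read 9.38, 9.49 and 9.39 in the controls and 9.07, 9.17 and 9.01 in the knockdown, with no overlap, and fell by 0.34 ± 0.06 (adjusted p = 0.00547). The Tet1 set overlapped, with 8.27, 8.25 and 8.35 in the scrambled arrays, 8.56, 8.34 and 8.45 with shRNA 4 and 8.09, 8.32 and 8.29 with shRNA 5 (0.16 ± 0.08 and -0.06 ± 0.08). Aldoa, the main aldolase of most tissues and the transport or enzyme probe set with the highest mean value, read 12.85, 13.07 and 13.01 in the scrambled arrays, 13.00, 13.10 and 13.00 with shRNA 4 and 12.97, 13.01 and 12.96 with shRNA 5. Sin3A set values were 13.36, 13.40 and 13.40 in the controls and 13.46, 13.43 and 13.46 in the knockdown. None of its changes passed, and the 95% intervals ran from -0.10 to 0.21, -0.15 to 0.15 and -0.04 to 0.17.

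The bifunctional enzymes that set the level of fructose 2,6-bisphosphate, an activator of phosphofructokinase, gave no call against scrambled. Pfkfb3 changed by 0.14 ± 0.08, 0.07 ± 0.08 and -0.24 ± 0.08. Pfkfb4, whose probe set had the lowest mean value among the enzymes, lay below the median probe set. It read 5.81, 5.81 and 5.76 in the scrambled arrays, 5.93, 5.71 and 5.88 with shRNA 4 and 5.70, 5.80 and 5.83 with shRNA 5. Sin3A set values were 7.00, 6.98 and 6.86 in the controls and 7.04, 7.08 and 7.20 in the knockdown, the only one of its comparisons whose groups did not overlap (0.16 ± 0.06, adjusted p = 0.114).

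For late glycolysis the named probe sets among the members were Pgk1, Eno2 and Pkm. Eno2, the neuronal enolase, fell with Sin3A shRNA from 7.73, 7.54 and 7.41 to 7.18, 7.23 and 7.17, without overlap (-0.37 ± 0.08, adjusted p = 0.0136). Its probe set lay below the median probe set. In the Tet1 set the arrays overlapped at 6.49, 6.42 and 6.64 (scrambled), 6.67, 6.44 and 6.48 (shRNA 4) and 6.47, 6.25 and 6.48 (shRNA 5).

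Pgk1, the first ATP-yielding enzyme, had the largest standard error of the members in the Sin3A set. It read 8.01, 8.37 and 8.24 in the controls and 8.98, 8.86 and 8.31 in the knockdown, so replicate 3 of Sin3A shRNA overlapped the controls and the change of 0.51 ± 0.17 did not pass (adjusted p = 0.0648). Pkm, the pyruvate kinase of the last step, did not pass in any knockdown, with 95% intervals of -0.09 to 0.18, -0.10 to 0.16 and -0.08 to 0.17.

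Among the 7 genes that decide the fate of pyruvate and lactate, 2 were higher with each Tet1 hairpin, and 1 was higher and 2 were lower with Sin3A shRNA. That is 28.6%, 28.6% and 42.9%, beside 11.6%, 13.8% and 24.8% of all probe sets and 18.8%, 23.0% and 37.6% of those above the median. Pdk1, a pyruvate dehydrogenase kinase and a textbook HIF target, read 10.13, 9.94 and 10.15 in the scrambled arrays of the Tet1 set, 10.50, 10.34 and 10.51 with shRNA 4 and 10.37, 10.33 and 10.40 with shRNA 5. Sin3A set values were 10.96, 10.98 and 10.95 in the controls and 11.53, 11.56 and 11.53 in the knockdown. All knockdown arrays were above their controls. It rose by 0.38 ± 0.08 (1.30-fold, adjusted p = 0.0101), 0.29 ± 0.08 (1.23-fold, 0.0296) and 0.58 ± 0.05 (1.49-fold, 1.65e-04). Dropping scrambled replicate 2 (adjusted p = 0.0599) or shRNA 5 replicate 1 (0.0856), 2 (0.0679) or 3 (0.0985) ended the shRNA 5 call, as did centring each array on its median (0.0505). The related kinases Pdk2 and Pdk3 did not pass in any knockdown (0.17 ± 0.09, -0.02 ± 0.09 and 0.04 ± 0.06 for Pdk2, and -0.04 ± 0.09, 0.03 ± 0.09 and 0.14 ± 0.06 for Pdk3).

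Slc16a1 and Slc16a3 encode monocarboxylate transporters, the second of them best known for lactate export from glycolytic cells. Slc16a1 read 10.36, 10.44 and 10.32 in the scrambled arrays, 10.60, 10.62 and 10.71 with shRNA 4 and 10.69, 10.66 and 10.78 with shRNA 5, and in the Sin3A set 11.16, 10.99 and 11.13 in the controls and 10.90, 11.00 and 10.95 in the knockdown. The Tet1 knockdown arrays were all above the controls, and the Sin3A groups overlapped. The gene rose by 0.27 ± 0.06 with shRNA 4 (adjusted p = 0.0229) and by 0.34 ± 0.06 with shRNA 5 (0.00605), and the Sin3A change was -0.14 ± 0.06 (0.142). The call for shRNA 4 ended on leaving out scrambled replicate 1 (adjusted p = 0.0656) or 3 (0.0865) or shRNA 4 replicate 1 (0.0509) or 3 (0.0849), and when only the arrays of both groups compared entered the fit (0.0553).

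Slc16a3 fell with Sin3A shRNA, from 10.84, 10.73 and 10.89 to 10.30, 10.30 and 10.25, a clear gap between the groups (-0.54 ± 0.06, 1.45-fold lower, adjusted p = 5.52e-04). In the Tet1 set the groups overlapped at 10.44, 10.51 and 10.53 (scrambled), 10.46, 10.39 and 10.48 (shRNA 4) and 10.45, 10.42 and 10.46 (shRNA 5).

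Ldhb, the lactate dehydrogenase subunit of oxidative tissues, also fell with Sin3A shRNA, from 11.66, 11.51 and 11.60 to 11.18, 11.16 and 11.02 with no overlap (-0.47 ± 0.07, adjusted p = 0.00177). In the Tet1 set it read 9.73, 10.00 and 9.93 in the scrambled arrays, 10.01, 10.08 and 10.15 with shRNA 4 and 9.83, 9.76 and 9.71 with shRNA 5, and neither change passed. Ldha, the subunit that prevails in glycolytic cells, did not pass in any knockdown, with 95% intervals of -0.15 to 0.10, -0.04 to 0.21 and -0.13 to 0.14.

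**Figure D2:**
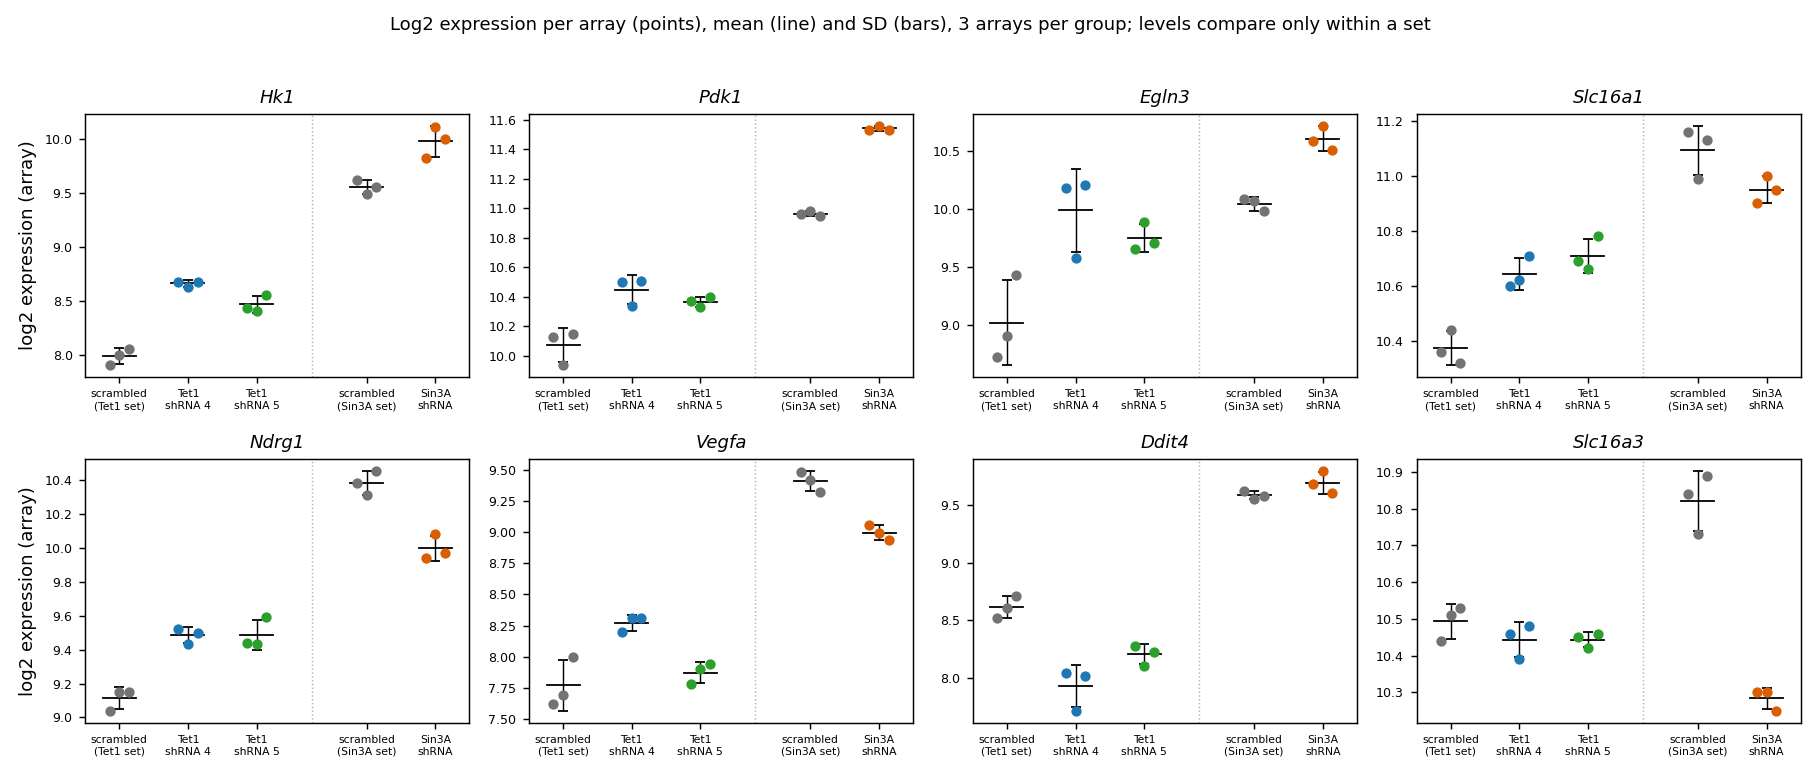
Log2 value of 8 members in each of the 15 arrays (vertical axis), by group, with lines at the group means and bars of 1 SD; levels are to be compared only within a set and a gene. Hk1, Pdk1 and Egln3 arrays lie above their controls in both sets, Ndrg1 and Vegfa lie below them in the Sin3A set, and Slc16a3 shifts by -0.54 with Sin3A shRNA alone.

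Of the oxygen sensing genes, Egln3 rose in all 3 knockdowns, Egln1 with Tet1 shRNA 4 alone of them, and Hif1a passed in none. Egln3, a prolyl hydroxylase that is itself a HIF target, read 8.73, 8.91 and 9.43 in the scrambled arrays, 10.18, 9.58 and 10.21 with shRNA 4 and 9.66, 9.89 and 9.71 with shRNA 5. Sin3A set values were 10.09, 10.07 and 9.98 in the controls and 10.59, 10.72 and 10.51 in the knockdown. The groups did not overlap, although scrambled replicate 3 was high and came close to shRNA 4 replicate 2. Its changes were 0.97 ± 0.20 (1.95-fold, adjusted p = 0.0114), 0.73 ± 0.20 (1.66-fold, 0.0374) and 0.56 ± 0.07 (1.47-fold, 9.71e-04). Removal of shRNA 4 replicate 1 (adjusted p = 0.0502) or 3 (0.0514) ended the shRNA 4 call. For shRNA 5 the call ended on removal of scrambled replicate 1 (0.121) or 2 (0.103), of shRNA 5 replicate 1 (0.0799), 2 (0.127) or 3 (0.0928), or of both arrays that stood apart (0.051). The Sin3A call passed without each single array.

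Egln1, the main oxygen sensor among the hydroxylases, read 7.90, 7.72 and 8.10 in the scrambled arrays, 8.59, 8.22 and 8.53 with shRNA 4 and 8.21, 8.37 and 8.34 with shRNA 5, with no overlap. It rose by 0.54 ± 0.12 with shRNA 4 (adjusted p = 0.0161), and the change with shRNA 5 was 0.40 ± 0.12 (0.0543). In the Sin3A set the groups overlapped at 8.96, 9.01 and 8.82 and at 8.96, 9.02 and 8.86 (0.01 ± 0.07). The shRNA 4 call ended on removal of scrambled replicate 1 (adjusted p = 0.0508) or shRNA 4 replicate 1 (0.0671) or 3 (0.0654), and when only both groups compared were fitted (0.0538).

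Hif1a, the oxygen-regulated subunit, had the highest mean value of the HIF probe sets. It read 11.56, 11.34 and 11.44 in the scrambled arrays, 11.40, 11.23 and 11.28 with shRNA 4 and 11.40, 11.48 and 11.42 with shRNA 5, and 11.91, 12.02 and 11.84 against 11.83, 11.91 and 11.97 in the Sin3A set. All groups overlapped, and the 95% intervals of the changes were -0.31 to 0.03, -0.18 to 0.16 and -0.17 to 0.13. HIF activity is set mainly by protein stability, which these arrays do not measure.

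The HIF targets moved in both directions. Ndrg1 rose with both Tet1 hairpins and fell with Sin3A shRNA, and Vegfa rose with Tet1 shRNA 4 and fell with Sin3A shRNA. Ndrg1, a stress- and hypoxia-induced gene, read 9.04, 9.15 and 9.15 in the scrambled arrays, 9.52, 9.43 and 9.50 with shRNA 4 and 9.44, 9.43 and 9.59 with shRNA 5, and in the Sin3A set 10.38, 10.31 and 10.45 in the controls and 9.94, 10.08 and 9.97 in the knockdown. There was no overlap in any comparison. It rose by 0.37 ± 0.07 (adjusted p = 0.00526) and 0.38 ± 0.07 (0.00435) with the Tet1 hairpins and fell by 0.39 ± 0.06 (0.00303) with Sin3A shRNA.

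Vegfa, the angiogenic growth factor, read 7.62, 7.69 and 8.00 in the scrambled arrays, 8.20, 8.31 and 8.31 with shRNA 4 and 7.78, 7.90 and 7.94 with shRNA 5. Arrays of shRNA 5 overlapped the controls and those of shRNA 4 did not. It rose by 0.50 ± 0.10 with shRNA 4 (1.42-fold, adjusted p = 0.00908), the change with shRNA 5 was 0.10 ± 0.10 (0.597), and the shRNA 4 change missed the threshold when both arrays that stood apart were left out (0.0715). In the Sin3A set it fell from 9.48, 9.42 and 9.32 to 9.06, 8.99 and 8.94 (-0.41 ± 0.06, adjusted p = 0.00237) with no overlap.

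Ddit4, a stress-induced inhibitor of mTORC1 signalling, fell in the Tet1 set. It read 8.52, 8.61 and 8.71 in the scrambled arrays, 8.05, 7.72 and 8.02 with shRNA 4 and 8.28, 8.11 and 8.23 with shRNA 5, with no overlap. The change was -0.69 ± 0.10 with shRNA 4 (1.61-fold lower, adjusted p = 0.00133) and -0.41 ± 0.10 with shRNA 5 (1.33-fold lower, 0.018). Without scrambled replicate 3 (adjusted p = 0.0728) or shRNA 5 replicate 2 (0.0759) or 3 (0.0514), shRNA 5 no longer passed. With Sin3A shRNA the groups overlapped at 9.62, 9.55 and 9.58 and at 9.68, 9.79 and 9.60 (0.11 ± 0.06, adjusted p = 0.248).

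Bnip3, a mitophagy receptor, read 9.93, 10.30 and 10.31 in the scrambled arrays, 9.87, 9.82 and 10.00 with shRNA 4 and 9.76, 9.85 and 9.63 with shRNA 5. It fell by 0.43 ± 0.11 with shRNA 5 (adjusted p = 0.0271), whose arrays did not overlap the controls, and changed by -0.28 ± 0.11 with shRNA 4 (0.147), whose arrays did. It no longer passed on removal of scrambled replicate 2 (0.0785) or 3 (0.103), of shRNA 5 replicate 1 (0.0756) or 3 (0.104) or of both arrays that stood apart (0.0892), and when only both groups compared were fitted (0.0596). Values were 10.68, 10.64 and 10.77 in the Sin3A set's controls and 10.84, 10.85 and 10.84 in the knockdown (0.14 ± 0.05, adjusted p = 0.0884).

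P4ha1 and P4ha2 encode the catalytic subunits of collagen prolyl hydroxylase and were called in different knockdowns. P4ha1 read 8.61, 8.47 and 8.76 in the scrambled arrays, 9.10, 8.87 and 9.12 with shRNA 4 and 8.80, 8.89 and 8.87 with shRNA 5, with no overlap. It rose by 0.42 ± 0.09 with shRNA 4 (adjusted p = 0.0152) and the change with shRNA 5 was 0.24 ± 0.09 (0.119). The shRNA 4 call was lost without shRNA 4 replicate 1 (0.0641) or 3 (0.0632) and when only both groups compared were fitted (0.0541). Values were 9.50, 9.58 and 9.46 in the Sin3A set's controls and 9.26, 9.37 and 9.45 in the knockdown (-0.16 ± 0.06, adjusted p = 0.124).

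P4ha2 fell with Sin3A shRNA, from 7.75, 7.89 and 8.02 to 7.42, 7.57 and 7.57 with no overlap (-0.37 ± 0.08, adjusted p = 0.013). In the Tet1 set it read 6.65, 6.69 and 6.79 in the scrambled arrays, 6.65, 6.45 and 6.47 with shRNA 4 and 6.45, 6.56 and 6.74 with shRNA 5, with overlap. Mxi1, a Myc antagonist that recruits Sin3 proteins, rose with Sin3A shRNA from 9.16, 9.26 and 9.32 to 9.65, 9.61 and 9.63 with no overlap (0.38 ± 0.06, adjusted p = 0.00247). In the Tet1 set its arrays overlapped at 8.10, 8.16 and 8.07 (scrambled), 8.18, 8.05 and 8.13 (shRNA 4) and 8.02, 8.04 and 8.10 (shRNA 5).

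Car9, Adm and Ankrd37, among the most used reporters of hypoxia, were below the median probe set and passed in no knockdown. Car9, a carbonic anhydrase and the HIF probe set with the lowest mean value, read 5.08, 4.99 and 5.08 in the scrambled arrays, 5.08 in each shRNA 4 array and 5.00, 5.17 and 5.16 with shRNA 5. In the Sin3A set it read 6.62, 6.56 and 6.35 in the controls and 6.40, 6.46 and 6.47 in the knockdown. The 95% intervals of its changes were -0.11 to 0.17, -0.08 to 0.21 and -0.24 to 0.11. Adm, which encodes adrenomedullin, changed by 0.10 ± 0.10, 0.06 ± 0.10 and -0.03 ± 0.07, and Ankrd37, an ankyrin repeat gene, by -0.01 ± 0.06, 0.04 ± 0.06 and -0.04 ± 0.06. Arrays that shared a value to every deposited digit, beyond the rounding printed here, were found in the Tet1 set for 10 of the 35 members and 49.1% of all probe sets, and in the Sin3A set for none.

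The Tet1 and Sin3A effects were then compared directly, each taken within its own set. A constant shift between the sets cancels in this comparison, but a difference in scale would not. Control means in the Tet1 and Sin3A sets were 5.05 and 6.51 for Car9, but 13.06 and 13.07 for Ldha. How far scale enters the differences was not tested. The mean Tet1 effect was above the Sin3A effect for 9 of the 35 members and below it for 5, or 40.0%, while 20.0% of all probe sets passed (11.3% above and 8.71% below) and 31.6% of those above the median. The split was 5 above and 2 below of 22 transport and enzyme genes, and 4 above and 3 below of 13 HIF genes. For Ndrg1 the mean Tet1 effect was 0.37 and the Sin3A effect -0.39, a difference of 0.76 ± 0.08 (limma adjusted p = 1.80e-05). Vegfa differed by 0.71 ± 0.12 (4.97e-04) and P4ha1 by 0.48 ± 0.11 (0.00541). These HIF targets were relatively higher after Tet1 knockdown. Ddit4 (-0.66 ± 0.11, adjusted p = 7.60e-04), Bnip3 (-0.50 ± 0.12, 0.00935) and Mxi1 (-0.41 ± 0.08, 0.00137) differed the other way.

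Among the enzymes and transporters, Slc16a3 (0.49 ± 0.07, adjusted p = 2.10e-04), Slc16a1 (0.45 ± 0.08, 0.00132) and Ldhb (0.50 ± 0.10, 0.00214) had the higher Tet1 effect. For Slc16a3 and Ldhb the mean Tet1 effects were -0.05 and 0.03, beside Sin3A effects of -0.54 and -0.47. For Slc16a1 they were 0.30 and -0.14. Aldoc (0.39 ± 0.10, 0.011) also had the higher Tet1 effect, but this did not pass with Tet1 shRNA 5 alone in place of the mean (0.0813). Pgk1 differed by -0.57 ± 0.18 (0.0388), Egln1 by 0.45 ± 0.14 (0.0325) and Pfkfb3 by 0.34 ± 0.11 (0.0467). These calls lay near the threshold and were lost when any of many single arrays was left out. Pgk1 was lost without 10 of the 15 arrays, with adjusted p up to 0.111. It was kept only without Tet1 shRNA 4 replicate 1 or 3, Tet1 shRNA 5 replicate 1, replicate 2 of the Sin3A set's scrambled arrays or Sin3A shRNA replicate 3. Egln1 was lost without 8 arrays, up to 0.0837. It was kept without replicate 3 of either set's scrambled arrays, Tet1 shRNA 4 replicate 1 or 2, Tet1 shRNA 5 replicate 1 or 3 or Sin3A shRNA replicate 2. Pfkfb3 was lost without 12 arrays, up to 0.123. It was kept without replicate 3 of the Tet1 set's scrambled arrays, Tet1 shRNA 4 replicate 2 or Sin3A shRNA replicate 3. For Hk1 (0.15 ± 0.10, 0.317), Pdk1 (-0.24 ± 0.08, 0.0575) and Egln3 (0.29 ± 0.22, 0.428) the difference did not pass. Its 95% intervals, -0.05 to 0.36, -0.42 to -0.06 and -0.19 to 0.76, do not show that the effects were equal.

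**Figure D3:**
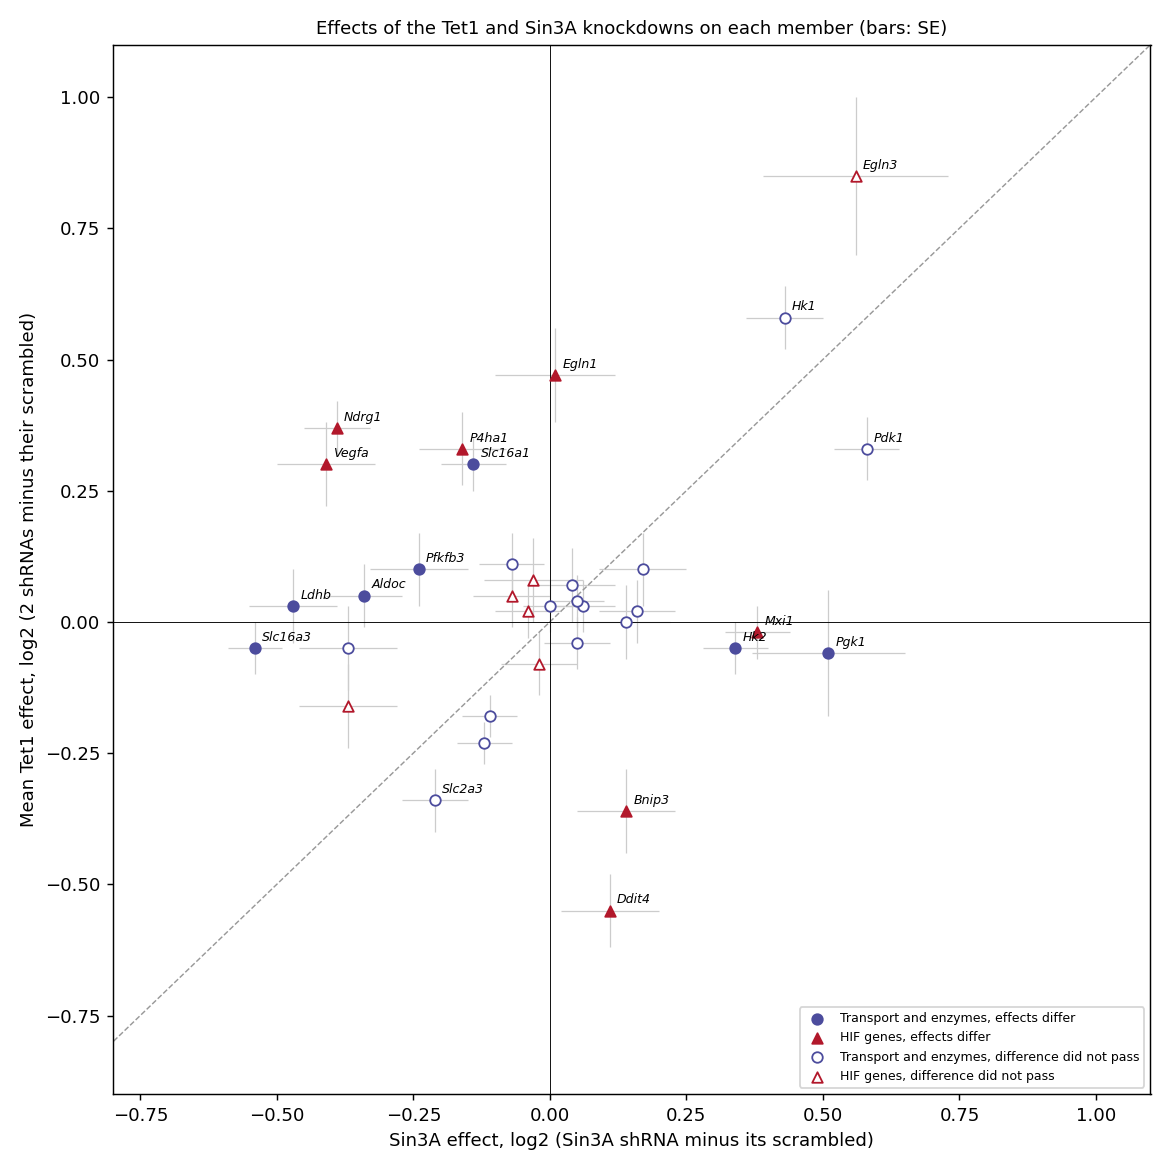
Mean Tet1 effect (vertical axis, log2) against Sin3A effect (horizontal axis, log2) for the 35 members, with standard errors from the fit of all 15 arrays; filled points have a difference that passed and the diagonal marks equal effects. Ndrg1 and Vegfa lie in the quadrant of opposite signs (differences of 0.76 and 0.71), and Ddit4 lies on the other side of the diagonal at -0.66.

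Between the Tet1 hairpins no member passed the test. The count was 0 of 35 in either direction, where 0.141% of all probe sets passed by limma. At an unadjusted p under 0.05, 1 member was higher and 8 were lower with shRNA 5 than with shRNA 4. Arrays of the hairpins did not overlap for 10 of 35 members (28.6%), against 14.9% of all probe sets and 22.4% of those above the median. The largest differences were -0.40 ± 0.10 for Vegfa (adjusted p = 0.217) and -0.37 ± 0.09 for Pfkp (0.194), so calls made with a single Tet1 hairpin, such as Vegfa, Egln1, P4ha1, Slc2a3, Pfkl, Tpi1 and Bnip3, were not shown to differ between the hairpins.

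Further genes of these pathways were taken as 4 lists, of which 64 of 70 genes were measured. Of 10 HIF pathway regulators, 1 was higher and 1 lower with each Tet1 hairpin, and 2 were higher and 1 lower with Sin3A shRNA. That is 20.0%, 20.0% and 30.0%, beside 11.6%, 13.8% and 24.8% of all probe sets and 18.8%, 23.0% and 37.6% of those above the median. Epas1, which encodes the second HIF alpha subunit, read 9.58 to 9.76 in the scrambled arrays, 10.43 to 10.65 with shRNA 4, 10.61 to 10.76 with shRNA 5, and 10.43 to 10.58 against 11.52 to 11.60 in the Sin3A set. No groups overlapped, and the changes of 0.85 ± 0.08, 1.01 ± 0.08 and 1.07 ± 0.06 (adjusted p = 1.26e-04, 6.01e-05 and 4.61e-05) were larger than that of any member save Egln3 with shRNA 4. Hif3a, a family member with inhibitory isoforms, was lower in each comparison (-0.61 ± 0.09, -0.66 ± 0.09 and -0.61 ± 0.06, adjusted p = 0.00254, 0.0015 and 3.61e-04). Arnt2, a partner subunit, rose with Sin3A shRNA (0.36 ± 0.06, 0.00348).

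Of 25 further HIF targets, 4 were higher and 2 lower with shRNA 4, 4 higher and 3 lower with shRNA 5, and 0 higher and 10 lower with Sin3A shRNA (2 and 11 at an unadjusted p under 0.05, limma). The adjusted calls made up 24.0%, 28.0% and 40.0%, beside 11.6%, 13.8% and 24.8% of all probe sets. Among probe sets above the median the shares were 18.8%, 23.0% and 37.6%, in either direction. By direction, 12.2% of all probe sets were higher with Sin3A shRNA and 12.6% lower, beside 0 and 10 of the 25 targets. The median change of the 25 targets was 0.06, -0.07 and -0.17, beside 0.00, 0.00 and 0.01 over all probe sets. Loxl2, which cross-links collagen, rose by 0.89 ± 0.08 and 0.52 ± 0.08 with the Tet1 hairpins and fell by 0.44 ± 0.05 with Sin3A shRNA (adjusted p = 1.07e-04, 0.00199 and 8.50e-04). Plod1, a lysyl hydroxylase of collagen, rose by 0.59 ± 0.06 and 0.46 ± 0.06 and fell by 0.23 ± 0.05 (1.86e-04, 7.76e-04 and 0.015). Its Sin3A call was lost without replicate 1 of the scrambled arrays (0.0601) or replicate 2 of Sin3A shRNA (0.0602). Angptl4, a secreted inhibitor of lipoprotein lipase, changed by 0.34 ± 0.09, 0.53 ± 0.09 and -0.40 ± 0.06 (0.0443, 0.00456 and 0.00175). Its shRNA 4 call was lost without any single array other than scrambled replicate 2 (up to 0.147), with the replicate block (0.0561), with repeated quantile normalization (0.11) and when only both groups compared were fitted (0.106). The mean Tet1 effect exceeded the Sin3A effect by 1.14 ± 0.09 for Loxl2, 0.76 ± 0.07 for Plod1 and 0.84 ± 0.11 for Angptl4 (adjusted p = 1.07e-06, 4.29e-06 and 7.62e-05). Stc2, a secreted glycoprotein, was lower with shRNA 5 (-0.60 ± 0.06, 1.59e-04) and Sin3A shRNA (-0.42 ± 0.08, 0.00591).

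**Figure D4:**
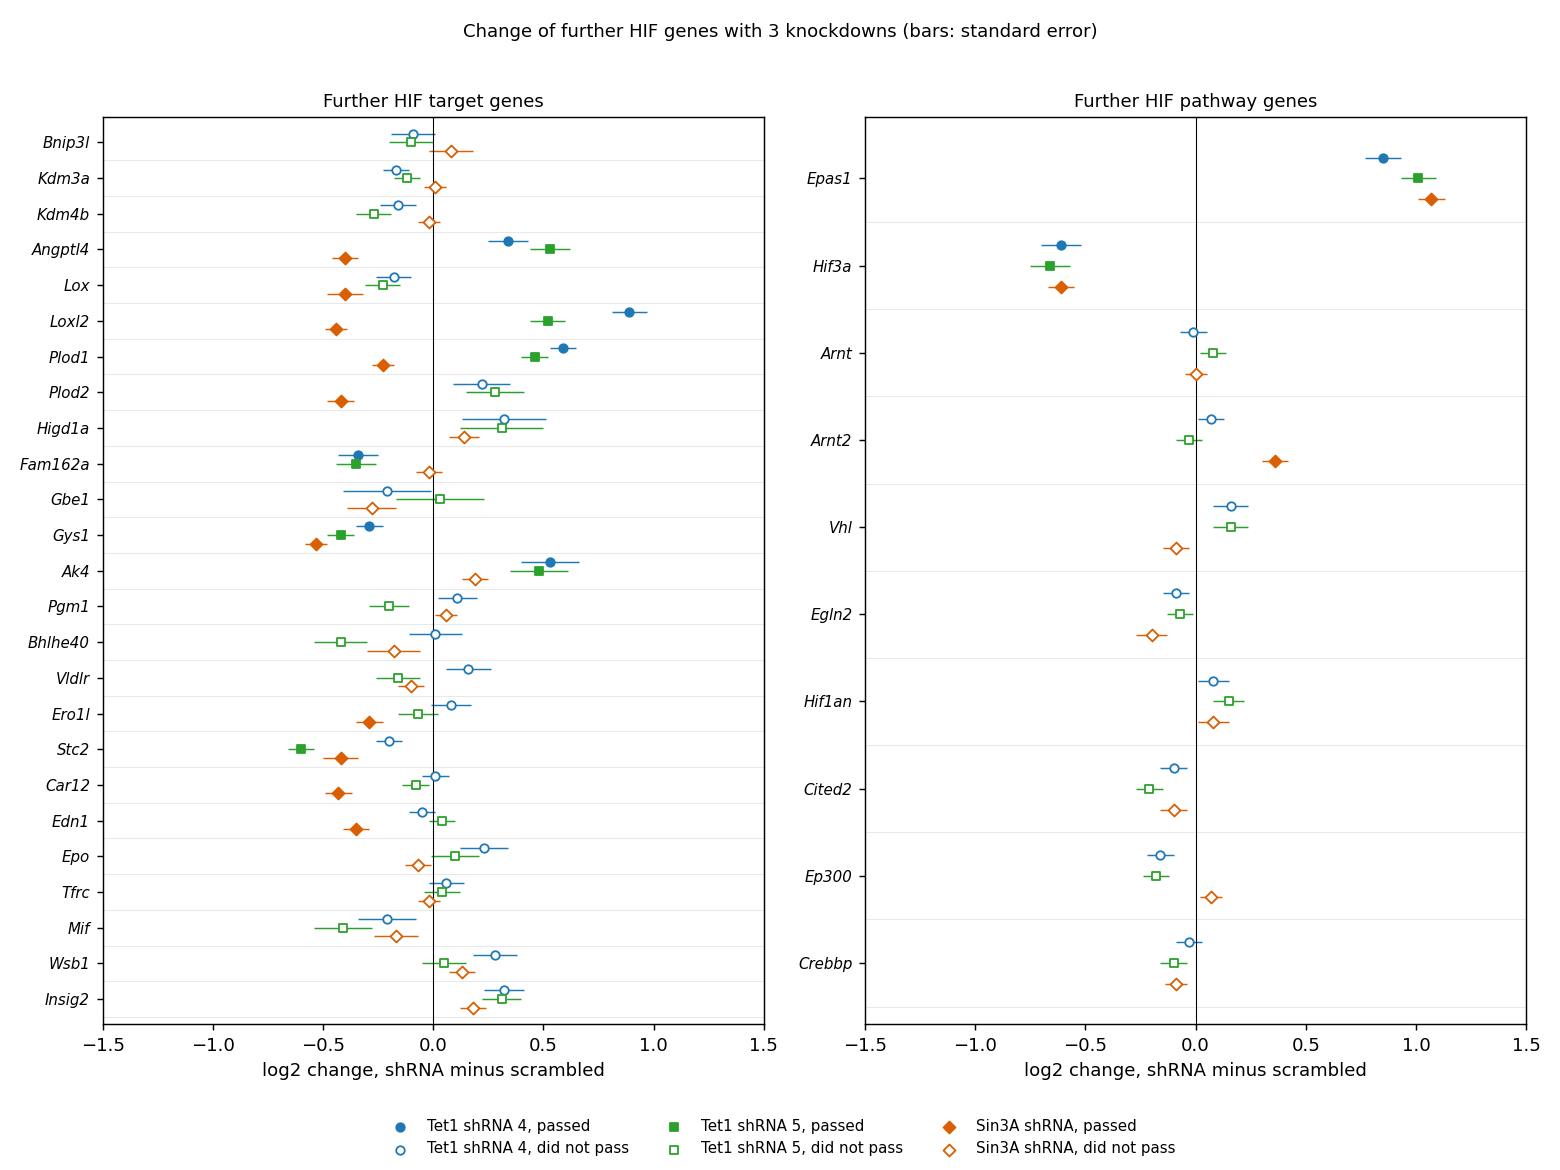
Log2 change against scrambled for the further HIF pathway regulators and HIF targets in the 3 knockdowns, with standard errors; filled points passed the adjusted threshold. Epas1 is higher (0.85, 1.01 and 1.07) and Hif3a lower with each symbol (circles Tet1 shRNA 4, squares Tet1 shRNA 5, diamonds Sin3A shRNA). The 10 HIF targets that passed with Sin3A shRNA (40.0%) all lie below 0. Of all probe sets 12.6% were lower and 12.2% higher with Sin3A shRNA. Of those above the median 37.6% passed in either direction.

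Of 22 further glycolysis and pyruvate genes, 1 was higher and 0 lower with each Tet1 hairpin, and 4 were higher and 4 lower with Sin3A shRNA. At an unadjusted p under 0.05, 1 was lower with shRNA 4 and 4 with shRNA 5 (limma). The adjusted calls made up 4.55%, 4.55% and 36.4% of the 22 genes, beside 11.6%, 13.8% and 24.8% of all probe sets. Eno3, the muscle enolase, read 8.74 to 8.92 in the Sin3A set's controls and 7.76 to 7.90 in the knockdown (-1.02 ± 0.07, 2.03-fold lower, adjusted p = 7.84e-05). Pdp1, the phosphatase that opposes the Pdk kinases, rose by 0.79 ± 0.05 (1.03e-04), and the kinase Pdk4 rose by 0.56 ± 0.07 (9.97e-04). Mpc1, a subunit of the mitochondrial pyruvate carrier, was higher in each knockdown (0.48 ± 0.13, 0.73 ± 0.13 and 0.58 ± 0.08, adjusted p = 0.048, 0.0054 and 0.00223). Its shRNA 4 call was lost without any single array other than scrambled replicate 2 (up to 0.133), with the replicate block (0.0618), with repeated quantile normalization (0.0811) and when only both groups compared were fitted (0.122).

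In the pentose phosphate pathway, which branches from glucose 6-phosphate, 7 genes were measured. With shRNA 4, 2 were higher and 1 lower, and with shRNA 5 and with Sin3A shRNA 2 were higher and 0 lower (1 and 0 lower at an unadjusted p under 0.05, limma). The adjusted calls made up 42.9%, 28.6% and 28.6% of the 7 genes, beside 11.6%, 13.8% and 24.8% of all probe sets. Of those above the median 18.8%, 23.0% and 37.6% passed. H6pd, the dehydrogenase of the endoplasmic reticulum, rose by 0.67 ± 0.08 and 0.78 ± 0.08 with the Tet1 hairpins (adjusted p = 4.09e-04 and 1.77e-04), and the Sin3A change was -0.11 ± 0.06 (0.273). Tkt, transketolase, rose by 0.25 ± 0.06, 0.33 ± 0.06 and 0.21 ± 0.06 (0.0247, 0.0054 and 0.039). Its shRNA 4 call ended on removal of scrambled replicate 1 (0.0802) or shRNA 4 replicate 1 (0.0889) or 2 (0.0718), without both arrays that stood apart (0.0703), with the replicate block (0.057), with repeated quantile normalization (0.052) and when only both groups compared were fitted (0.0583). Its Sin3A call was lost without replicate 1 (0.108) or 2 (0.111) of the scrambled arrays or replicate 2 (0.13) or 3 (0.112) of Sin3A shRNA, and with the replicate block (0.0652). Rpe, an epimerase, fell by 0.53 ± 0.10 with shRNA 4 (0.00942). Pgd, the phosphogluconate dehydrogenase, rose by 0.21 ± 0.05 with Sin3A shRNA (0.0243), a call lost without replicate 1 (0.0603) or 2 (0.0735) of the scrambled arrays or replicate 2 (0.103) or 3 (0.0674) of Sin3A shRNA, and with the replicate block (0.0695).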

How the data were processed

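The values are log2 intensities of 21212 probe sets in 15 arrays, as deposited by the authors. Per the submitters' processing notes the authors used affy, RMA (background correction, quantile normalization and summary of probes) and limma, and versions and settings are not given in the sources used here. Arrays of the Tet1 set averaged 7.08 to 7.11 and those of the Sin3A set 8.09, so levels were compared only within a set. Genes were named through the platform annotation (1 symbol for 18786 probe sets), and the probe set with the highest mean over all arrays stood for a gene.

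limma 3.58.1 in R 4.3.3 (lmFit, eBayes, two-sided) was fitted to the 9 arrays of the Tet1 set with 3 group means, to the 6 arrays of the Sin3A set, and to all 15 arrays with 5 group means for the mean Tet1 effect minus the Sin3A effect. p-values were adjusted by Benjamini-Hochberg across the whole table and called under 0.05, and the code was tested on simulated data. The members and lists were chosen with earlier results of these data known. Values in every array are given for members past the threshold in at least 1 knockdown and for the highest and lowest probe set of each arm, and from each further list up to 4 passing genes by largest change. A few others were named after their values were seen (Slc2a1, Pkm, Ldha, Pfkp, Pfkm, Pfkfb3, Pgk1, Pdk2, Pdk3, Adm, Ankrd37). Alternatives were median centring, repeated quantile normalization, a filter at the median probe set, an intensity-dependent prior, the replicate number as a block, fewer groups in the fit, a single Tet1 hairpin in the difference, and leaving out arrays. Promoter windows came from RefSeq (GRCm38.p6).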

Additional observations from a re-analysis of the deposited data

Results flagged for a closer look

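The Tet1 and Sin3A effects differed for 14 members by the limma test of the difference itself (mean Tet1 effect minus Sin3A effect, adjusted over all probe sets), and these are listed because the same contrast gave unequal effects. They are 40.0% of the 35 members, where 20.0% of all probe sets passed and 31.6% of those above the median. On the log2 scale the difference was 0.76 for Ndrg1, 0.71 for Vegfa, 0.50 for Ldhb, 0.49 for Slc16a3, 0.48 for P4ha1, 0.45 for Slc16a1, 0.45 for Egln1, 0.39 for Aldoc and 0.34 for Pfkfb3. It was -0.66 for Ddit4, -0.57 for Pgk1, -0.50 for Bnip3, -0.41 for Mxi1 and -0.39 for Hk2. Of these, 10 passed under every alternative tried. Both sets had their own scrambled arrays, and set and knockdown target cannot be told apart. A difference in scale between the sets would not cancel.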

How the results depend on the processing

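No member's change turned its direction while called. Calls kept under every alternative numbered 4 of 9 with Tet1 shRNA 4, 6 of 10 with shRNA 5, 12 of 13 with Sin3A shRNA and 10 of 14 for the difference of effects. Members higher with shRNA 4 went from 8 to 5 with only both groups fitted and to 4 to 9 without single arrays (lowest without shRNA 4 replicate 1 or 3). Members lower went from 1 to 2 with median centring or without both arrays that stood apart, to 3 with the filter or the intensity-dependent prior, and to 1 to 2 without single arrays. With shRNA 5, members higher ranged from 3 to 6 (lowest without scrambled replicate 2 or any shRNA 5 array) and lower from 3 to 5 (lowest without scrambled or shRNA 5 replicate 3). With Sin3A shRNA, members higher went from 5 to 8 with the filter or the intensity-dependent prior. Without single arrays the Sin3A counts were 5 to 6 higher and 7 to 8 lower, those of the difference 7 to 9 and 4 to 5, and shRNA 5 against shRNA 4 stayed at 0 by limma (1 higher and 8 lower at an unadjusted p under 0.05 with all arrays). Deviations of arrays with the same replicate number in different groups correlated at -0.287 to 0.517 in the Tet1 set and -0.274 to 0.021 in the Sin3A set. For different numbers the ranges were -0.455 to 0.281 and -0.233 to 0.239. The numbers showed no steady pairing, but the 0.517 belongs to both replicate 2 arrays that stood apart, and a shared effect there is not excluded. With the replicate block, members called higher and lower numbered 8 and 1 with shRNA 4 and 6 and 5 with shRNA 5. They numbered 5 and 7 with Sin3A shRNA and 9 and 6 for the difference. Over all probe sets, shRNA 5 against shRNA 4 gave 12 higher and 18 lower, 16 and 15 with median centring, 11 and 22 with repeated quantile normalization, 34 and 38 with the filter, 22 and 26 with the intensity-dependent prior, and 1 and 0 without both arrays that stood apart. With the replicate block or with only both groups fitted, 0 passed by limma (1817 and 2114 at an unadjusted p under 0.05). Without single arrays the counts were 0 to 18 in either direction, and 0 without scrambled replicate 3, shRNA 4 replicate 1 or shRNA 5 replicate 1 or 3 (1677, 1300, 1405 and 1742 at an unadjusted p under 0.05 by limma). Without scrambled replicate 3, probe sets lower went from 999 to 641 with shRNA 4 and from 1159 to 767 with shRNA 5. Without Sin3A shRNA replicate 2, those higher went from 2592 to 1657 and those lower from 2669 to 1702.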
